A study of Mus musculus with 12 samples.

Results

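The transcription factor p53, encoded by Trp53, and 31 of its known target genes were followed in hearts that had lost the Mediator subunit MED30, 32 genes of the 20775 listed for each stage. The list was drawn up from knowledge of the pathway after the names of genes higher in the knockouts had been seen in these data, so the differences between knockout and control (Ctrl) given for its members are a description of genes chosen with that contrast in view, with no test. RNA was sequenced at 2 stages. At E10.5, 3 samples of hearts from embryos that carried Tnnt-Cre on a Med30 f/f background (cKO) were compared with 3 samples from Cre-negative Med30 f/f littermates (Ctrl). In mice of 3 months, cardiomyocytes isolated 4 weeks after tamoxifen were taken from αMHC-MerCreMer; Med30 f/f mice (icKO, 3 samples) and from Med30 f/f mice without the transgene (Ctrl, 3 samples). All carried the C57BL/6 strain label, and the labels call the controls wild type. Both Cre drivers act in cardiomyocytes, while the E10.5 samples are whole hearts that also hold other cells, so Med30 stays intact in part of that tissue. As no control sequenced here carried Cre, an effect of Cre or of its activation by tamoxifen on RNA cannot be told apart from the loss of Med30, and the floxed line came from a single targeted ES cell clone. The paper reports neither deaths nor impaired heart function after tamoxifen in αMHC-MerCreMer mice that had no floxed allele. RNA of such mice was not among these samples.

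In unstressed cells p53 is made and degraded continuously, because its target Mdm2 encodes the ubiquitin ligase that marks it for destruction. DNA damage, ribosomal stress or disturbed transcription stabilise the protein without any need for more Trp53 mRNA, and p53 then binds DNA and activates genes that stop the cell cycle, repair DNA, alter metabolism or cause apoptosis. Cardiomyocytes divide in the embryo and have largely left the cell cycle in the adult. Mediator is the complex that connects DNA-bound activators such as p53 with RNA polymerase II.

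Values are RPKM, reads per kilobase of transcript and M (mega) reads, as the authors deposited them. The log2 fold changes are on the log2(RPKM + 0.1) scale, with their standard error (SE) from limma, and were fitted for genes with a mean above 1 RPKM over the 6 samples of a stage. A gene is named as called when its Benjamini-Hochberg adjusted p was under 0.05 and its log2 fold change beyond 1. Med30 itself was at 10.6, 13.3 and 11.3 RPKM in E10.5 Ctrl and at 1.38, 2.02 and 1.0 RPKM in cKO hearts, and at 7.66, 7.45 and 7.66 RPKM in 4-week Ctrl and at 3.81, 3.16 and 1.82 RPKM in icKO cardiomyocytes. It was lower in the knockout in every sample of both stages. Libraries held an estimated 12 to 20 M counted reads. The scaling between libraries matters at 4 weeks, where the median change over the genes tested was 0.57 on the log2 scale with the RPKM as deposited and 0.01 after median-ratio scaling. At E10.5 the same medians were −0.13 and −0.01. Both values are therefore given for the members. In these bulk samples, fewer cells of a type and less RNA per cell cannot be told apart.

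p53 binds as a tetramer to a pair of decamers, each called a p53 half-site here. The sequence from 250 bases before to 50 bases after each start that the RefSeq promoter table gives for a gene on GRCm38.p6 (some genes have several) was searched for the half-site, which reads alike on both strands, and for a full site of 2 half-sites 0 to 13 bases apart. Such a promoter entry was matched for 24 of the 32 members, and 12 of them (50%) held a half-site, against 9.55% of the 27025 genes in the table. A full site was found in 1 member, Cdkn1a, and in 0.074% of all genes. A match is a run of letters and not evidence of binding, and p53 sites farther from a listed start, in introns or upstream, lie outside this window. The windows shown for Polk and Sesn1 belong to a start inside the gene and lie within its span. The half-sites of Gadd45a, Aen, Ei24 and Gtse1 lay in or beside an annotated exon and are not shown. The sequences below are shown because they are the promoter windows in which a member carried the letters p53 recognises and which reach into no annotated exon. Each is written 5′ to 3′ on the strand of its gene in GRCm38, with the half-sites in capitals.
Cdkn1a (chr17:29090813-29090962, + strand, full site starting at −73 from that start): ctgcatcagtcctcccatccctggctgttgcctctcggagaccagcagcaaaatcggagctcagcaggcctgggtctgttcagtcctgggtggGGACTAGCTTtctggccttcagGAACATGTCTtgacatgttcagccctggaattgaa
Mdm2 (chr10:117710910-117710969, − strand, half-site starting at −186): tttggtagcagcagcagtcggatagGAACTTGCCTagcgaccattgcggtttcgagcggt
Trp53 (chr11:69580259-69580318, + strand, half-site starting at −75): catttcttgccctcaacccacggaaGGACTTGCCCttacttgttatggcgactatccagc
Ccng1 (chr11:40755437-40755496, − strand, half-site starting at −185): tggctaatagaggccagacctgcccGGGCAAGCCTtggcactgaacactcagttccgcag
Bax (chr7:45467065-45467124, − strand, half-site starting at −201): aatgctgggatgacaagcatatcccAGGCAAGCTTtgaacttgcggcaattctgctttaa
Polk (chr13:96519384-96519437, − strand, half-site starting at −231): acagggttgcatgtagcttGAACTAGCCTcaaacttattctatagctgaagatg
Sesn1 (chr10:41887241-41887300, + strand, half-site starting at −173): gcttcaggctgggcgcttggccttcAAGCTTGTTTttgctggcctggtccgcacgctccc
Ckap2 (chr8:22185988-22186047, − strand, half-site starting at −203): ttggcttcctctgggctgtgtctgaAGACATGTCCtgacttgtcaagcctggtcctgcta
Of these 8 genes, Cdkn1a, Mdm2, Bax and Polk had higher mean RPKM in the knockouts at both stages, Trp53 and Ckap2 at 4 weeks alone, and Ccng1 and Sesn1 at E10.5 alone. The groups of Bax and Sesn1 overlapped at E10.5, and Ckap2 had a Ctrl mean of 0.0323 RPKM at 4 weeks. Of all genes tested, 31.4% at E10.5 and 73.1% at 4 weeks had a log2 fold change above 0 with the RPKM as deposited. The other 58 p53 targets with a row in the tables, a second list that holds no member, had a half-site in 11.3% of the 53 genes with a promoter entry.

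At E10.5, the cyclin-dependent kinase inhibitor Cdkn1a, the receptor Eda2r and the DNA polymerase Polk were called higher in cKO hearts, while the level of Trp53 itself differed little between the groups. Of the 27 members tested, 3 were called higher and 0 lower, where 0.239% of all genes tested were called higher and 0.542% lower. Among the 3, Eda2r passed the filter through its cKO samples. After median-ratio scaling 4 were higher and 0 lower, against 0.322% and 0.377% of all genes. Every cKO sample lay above every Ctrl sample for 19 of the 32 members and below for 2, against 4.4% and 13.8% of all listed genes. The 20775 listed genes include those under the filter, and 10885 were tested. As the list was chosen on this contrast, these shares describe it and are no evidence for it. Over all 32 members, without the filter on low values, the median log2 fold change was 0.66, beside −0.11 over all genes.

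**Figure D1:**
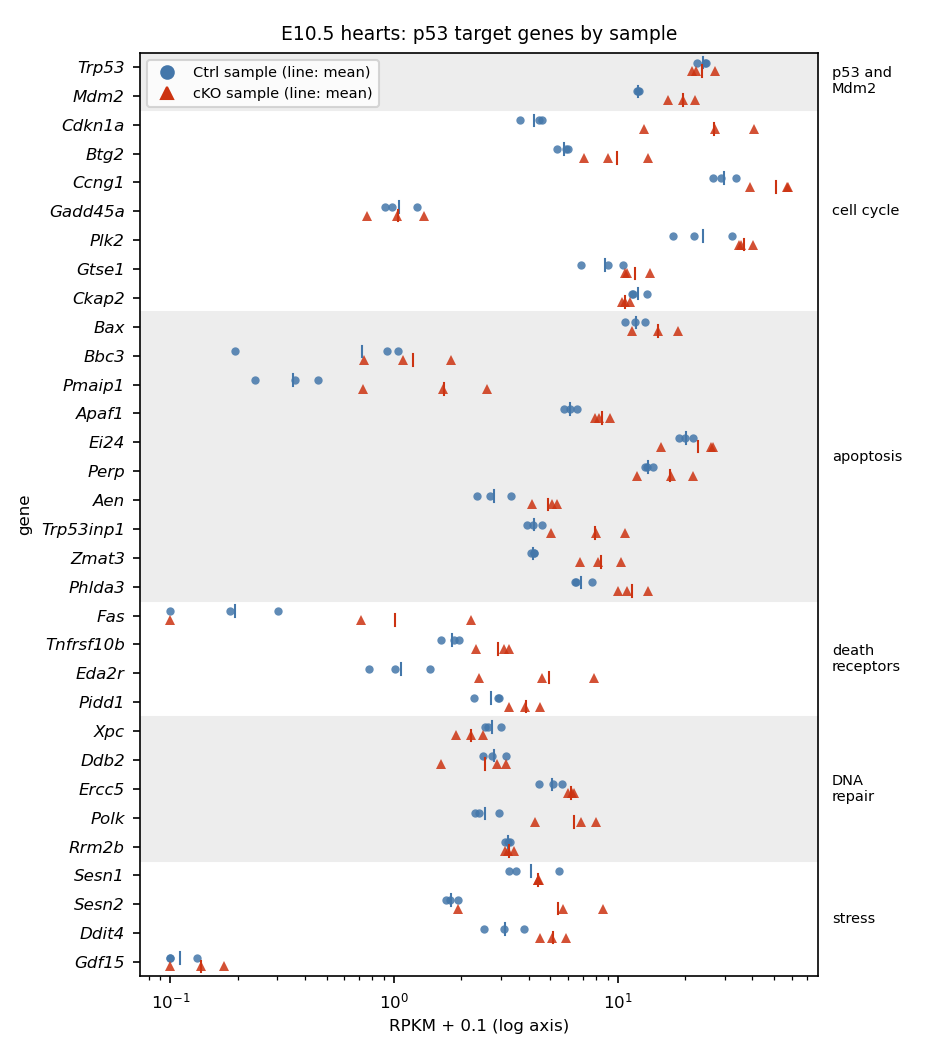
RPKM + 0.1 on a log axis for the 32 genes in each E10.5 heart sample, grouped by role, with Ctrl as circles, cKO as triangles and a line at each group mean; a gene listed at 0 sits at 0.1. The cKO samples of Cdkn1a (13 to 40.5 RPKM) lie clear of the Ctrl samples (3.54 to 4.46 RPKM), while those of Trp53 overlap them.

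Trp53 was at 24.5, 22.6 and 24.7 RPKM in Ctrl and at 21.3, 22.2 and 27.2 RPKM in cKO hearts. The groups overlapped, with a log2 fold change of −0.03 (SE 0.121; 0.09 after median-ratio scaling). Mdm2, both a target and the inhibitor of p53, was at 12.4, 12.1 and 12.2 RPKM in Ctrl and at 19.5, 22.1 and 16.7 RPKM in cKO hearts. All cKO samples lay above the narrow range of the Ctrl samples, with a log2 fold change of 0.66 (SE 0.123), short of the size that a call needed.

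Among the cell cycle genes, Cdkn1a, which encodes the kinase inhibitor p21 (GRCm38 chromosome 17, 29090979 to 29100722), had the largest log2 fold change of the 27 members. It was at 4.34, 3.54 and 4.46 RPKM in Ctrl and at 27.1, 40.5 and 13 RPKM in cKO hearts. The mean of cKO was 6.53 times that of Ctrl, the log2 fold change was 2.54 (SE 0.331; 2.66 after median-ratio scaling), and even the lowest cKO sample stood well above the highest Ctrl sample. The antiproliferative gene Btg2 went from 5.63 ± 0.358 to 9.80 ± 3.35 RPKM (mean ± SD, n = 3 here and below) and Ccng1, which encodes cyclin G1, from 29.7 ± 3.70 to 51.1 ± 10.4 RPKM. The polo-like kinase gene Plk2 went from 23.9 ± 7.59 to 36.7 ± 2.88 RPKM and Gtse1, a G2 and S phase gene whose product restrains p53, from 8.69 ± 1.85 to 11.8 ± 1.78 RPKM. Each of these 4 had log2 fold changes of 0.45 to 0.77 and groups that did not overlap, and none was called. Ckap2, a mitotic spindle gene, had a log2 fold change of −0.18 and no cKO sample reached the Ctrl range, and Gadd45a stayed at or under a mean of 1 RPKM and was not tested.

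Of the 10 genes of mitochondrial apoptosis and its p53-dependent cofactors, none was called with the RPKM as deposited. Zmat3, an RNA-binding regulator of splicing and mRNA stability, came closest. It was at 4.12, 3.98 and 4.10 RPKM in Ctrl and at 8.04, 10.2 and 6.65 RPKM in cKO hearts. All cKO samples lay above the narrow Ctrl range, and the log2 fold change of 0.99 (SE 0.161) became 1.11 and was called after median-ratio scaling. Trp53inp1, which promotes autophagy and the phosphorylation of p53, had a log2 fold change of 0.84, the nuclease gene Aen 0.81, Phlda3, an inhibitor of AKT signalling, 0.74, and Apaf1, the scaffold of the apoptosome, 0.47. All 4 had groups that did not overlap. The pore-forming gene Bax had a log2 fold change of 0.31, the junction gene Perp 0.27 and Ei24 0.14, and in these 3 at least 1 cKO sample lay among or below the Ctrl samples. Pmaip1, which encodes the BH3-only protein NOXA, was too low to be tested, at 0.356, 0.260 and 0.140 RPKM in Ctrl and at 1.56, 2.52 and 0.628 RPKM in cKO hearts. Its groups did not overlap, and 3 reads on this gene correspond to 0.0550 to 0.0801 RPKM in these libraries. Bbc3, which encodes PUMA, had overlapping groups between 0.095 and 1.69 RPKM.

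Of the 4 death receptor genes, Eda2r, the receptor of ectodysplasin A2 (chromosome X, 97333837 to 97377234), was called. It was at 0.671, 1.35 and 0.912 RPKM in Ctrl and at 4.47, 7.69 and 2.29 RPKM in cKO hearts, with all cKO samples above all Ctrl samples. The log2 fold change was 2.08 (SE 0.40), and it passed the filter on low values through the cKO samples, since the Ctrl mean was 0.977 RPKM. One Ctrl library, replicate 2, held 0.076 RPKM summed over 4 genes of the Y chromosome where the other E10.5 libraries held from 30.4 to 39.2 RPKM, and it had the highest of the Ctrl values of the X-linked Eda2r. The part of this difference between libraries in the result was not tested. Tnfrsf10b, a TRAIL receptor, went from 1.71 ± 0.168 to 2.80 ± 0.511 RPKM and Pidd1, a death domain adaptor, from 2.61 ± 0.381 to 3.77 ± 0.621 RPKM, both without overlap. Fas was at 0.202, 0 and 0.084 RPKM in Ctrl and at 0.615, 2.11 and 0 RPKM in cKO hearts and was not tested.

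The 5 DNA repair genes did not move as a block. Polk, which encodes the translesion DNA polymerase κ (chromosome 13, 96480687 to 96542579), was at 2.85, 2.20 and 2.30 RPKM in Ctrl and at 6.73, 7.88 and 4.18 RPKM in cKO hearts. No cKO sample reached down to the Ctrl range, and the log2 fold change was 1.28 (SE 0.228). The nuclease gene Ercc5 had a log2 fold change of 0.30 without overlap of the groups. The damage recognition genes Xpc and Ddb2 had values of −0.32 and −0.18, the cKO samples of Xpc all being lower than its Ctrl samples, and Rrm2b, a ribonucleotide reductase subunit, had 0.02.

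Of the stress and metabolism genes, Sesn2, which encodes a sestrin that restrains mTORC1, was at 1.82, 1.61 and 1.68 RPKM in Ctrl and at 5.58, 8.52 and 1.84 RPKM in cKO hearts. Replicate 3 of cKO stood level with the Ctrl samples and the other two well above them. The log2 fold change of 1.34 (SE 0.440) was not called. Its paralog Sesn1 had 0.16 with overlapping groups, and Ddit4, another inhibitor of mTORC1, had 0.72 without overlap. Gdf15, a secreted stress cytokine, was below the RPKM of 3 reads in every E10.5 sample.

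The cKO hearts differed among themselves in a recurring order. Replicate 2 was the highest of the 3 cKO samples for 19 of the 27 members tested (70.4%; 24.2% of all genes tested) and replicate 3 the lowest for 20 (74.1%; 27.7% of all genes). Relative to the Ctrl mean on the log2 scale, Cdkn1a was higher by 2.70, 3.28 and 1.64 in cKO replicates 1, 2 and 3, Eda2r by 2.13, 2.90 and 1.20, Trp53inp1 by 0.92, 1.35 and 0.25, and Sesn2 by 1.66, 2.26 and 0.10. Replicate 1 was the lowest for the other 7, among them Aen, Apaf1 and Pidd1. These genes share the libraries, so they are not separate observations of the order. Without cKO replicate 3, 6 members were called higher (Sesn2, Trp53inp1 and Zmat3 joining the 3), and without cKO replicate 2 only Cdkn1a was. The residual Med30 was 1.38, 2.02 and 1.0 RPKM in the same replicates, and the summed level of 6 erythroid markers was 2840, 484 and 1250 RPKM, against 315 to 1070 RPKM in Ctrl. Whether either has a part in the order was not tested.

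**Figure D2:**
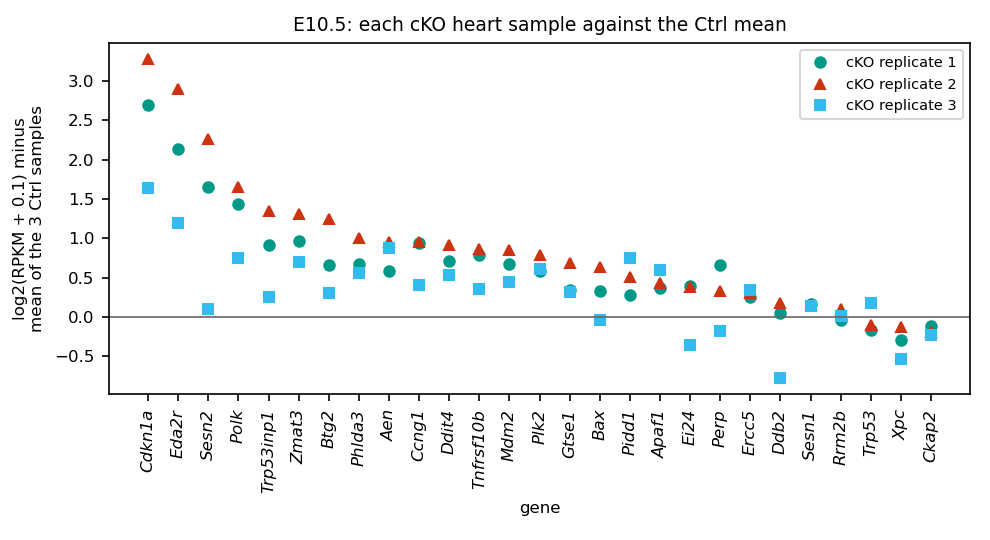
For each of the 27 genes tested at E10.5 (x axis, ordered by cKO replicate 2), log2(RPKM + 0.1) of each cKO sample minus the mean of the 3 Ctrl samples. Replicate 2 (triangles) is the highest for 19 genes and replicate 3 (squares) the lowest for 20.

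Defining markers of cardiomyocytes were abundant at E10.5, and none of the 6 was called. Their sum ranged from 3570 to 5960 RPKM in Ctrl hearts and was lower with cKO, at 2510 to 3110 RPKM. Myl2 carried most of this difference, its mean going from 3110 to 1440 RPKM without overlap. Ryr2 was also lower without overlap (40.0 to 32.0 RPKM). The groups of Tnnt2 (889 to 639 RPKM), Myh6 (302 to 288 RPKM), Actn2 (164 to 167 RPKM) and Ttn (175 to 198 RPKM) overlapped. Fibroblast, endothelial, endocardial and epicardial markers also had 0 calls, with overlapping sums. The summed macrophage markers were 8.48 to 11.1 RPKM in Ctrl and at 4.88 to 6.82 RPKM in cKO hearts, a sum carried by Lyz2, which averaged 7.72 and 3.77 RPKM and was called lower with the RPKM as deposited but not after median-ratio scaling (−0.92). The other macrophage markers differed little, with means of 1.67 and 1.57 RPKM for Cd68 and of 0.405 and 0.411 RPKM for Csf1r. Mural markers summed to 352 to 384 RPKM in Ctrl against 429 to 508 RPKM in cKO (0 of 3 tested called). Acta2 made up most of this sum, and its mean went from 366 to 468 RPKM without overlap. The groups of Pdgfrb (3.35 to 4.39 RPKM) and Rgs5 (1.80 to 1.66 RPKM) overlapped, and Myh11 (0.125 to 0.412 RPKM) was not tested. None of the 3 lymphocyte markers reached the filter, and they summed to 0.421 RPKM at most, with Cd3e listed at 0 throughout. The part of these differences in the values of the members was not tested.

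At 4 weeks, Cdkn1a and Phlda3 were at many times their Ctrl level in icKO cardiomyocytes, Trp53 mRNA and Mdm2 were also higher, and Btg2 and Sesn1 were lower. Of the 23 members tested, 10 were called higher and 2 lower, where 28.0% of all genes tested were called higher and 8.45% lower. Among the 10, Phlda3, Sesn2 and Gdf15 had a Ctrl mean under 1 RPKM and passed the filter through their icKO samples. After median-ratio scaling the members called were 5 higher and 5 lower, against 11.1% and 15.9% of all genes. Every icKO sample lay above every Ctrl sample for 23 of the 32 members and below for 4, against 36.2% and 11.9% of all listed genes, and after median-ratio scaling for 14 and 7, against 21.6% and 22.0%. The 20775 listed genes include those under the filter, and 9517 were tested. Among genes tested, 69.6% of the members and 61.5% of all genes had an unadjusted limma p under 0.05 with a higher level. With a lower level the shares were 17.4% and 18.6%. Over all 32 members without the filter, the median log2 fold change was 0.74, beside 0.36 over all genes. These counts, too, describe a list chosen on the contrast. Cardiomyocyte markers defined the Ctrl samples, where 6 of them summed to between 16700 and 17300 RPKM and 6 fibroblast markers to between 4.1 and 7.26 RPKM. In icKO the cardiomyocyte sum was 6660 to 8340 RPKM (3 of 6 called lower). Actn2, alone of the 6, had a higher mean in icKO (626 and 1140 RPKM), without overlap and not called. The fibroblast sum in icKO was 51.2 to 71.6 RPKM (4 of 4 tested called higher, but Dcn not after median-ratio scaling). Of these 4, Col1a1, Col3a1 and Postn had Ctrl means of 0.435, 0.909 and 0.367 RPKM and passed the filter through their icKO samples. Pdgfra and Tcf21 stayed under the filter, so the count of calls is a description. Endothelial markers summed to 6.39 to 18.4 RPKM in Ctrl against 16.4 to 29.7 RPKM in icKO (0 of 4 called) and macrophage markers to 2.41 to 3.95 RPKM against 5.03 to 7.72 RPKM (1 of 2 tested higher). The macrophage marker called was Lyz2, whose groups overlapped and which was not called after median-ratio scaling. The mural sum, 44.6 to 70.2 RPKM in Ctrl against 40.0 to 70.5 RPKM in icKO, was mostly Acta2, which averaged 48.1 and 35.8 RPKM and was not called. The other mural markers had higher means in icKO, Pdgfrb at 0.963 and 2.44 RPKM (called higher, but not after median-ratio scaling), Rgs5 at 6.47 and 14.0 RPKM (overlapping, not called) and Myh11 at 0.336 and 0.823 RPKM (not tested). Pdgfrb, too, passed the filter through its icKO samples. No lymphocyte or epicardial marker reached the filter, with lymphocyte sums of 0.147 RPKM at most and epicardial sums of 0.713 to 1.73 RPKM in Ctrl and 0.681 to 1.59 RPKM in icKO. The endocardial sums were 3.26 to 4.88 and 4.33 to 5.67 RPKM, and the 1 of 2 markers tested was not called. What part any of these has in the values of the members was not tested.

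**Figure D3:**
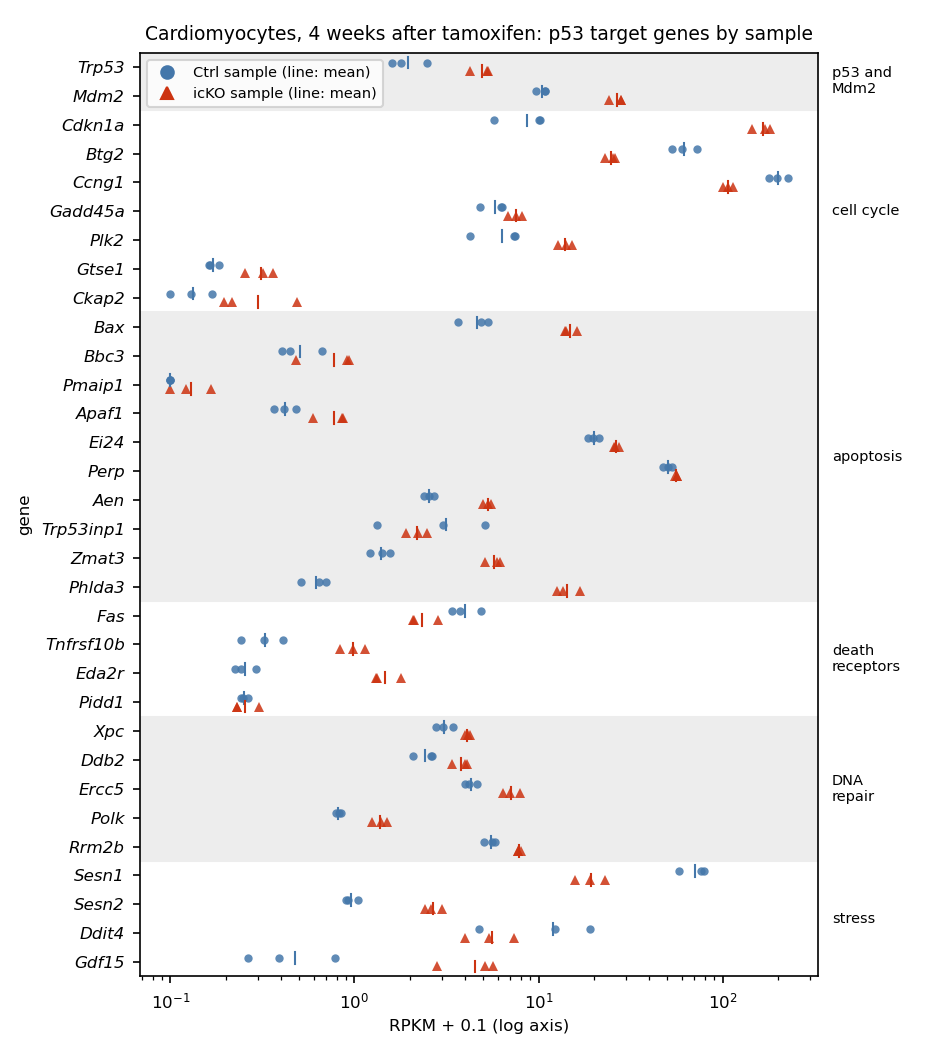
RPKM + 0.1 on a log axis for the 32 genes in each cardiomyocyte sample 4 weeks after tamoxifen, grouped by role, with Ctrl as circles, icKO as triangles and a line at each group mean; a gene listed at 0 sits at 0.1. Cdkn1a (144.3 to 181.2 RPKM in icKO) and Phlda3 (12.4 to 16.8 RPKM) lie farthest to the right of their Ctrl samples, and Sesn1, Btg2 and Ccng1 lie to the left.

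Trp53 was at 1.5, 2.38 and 1.70 RPKM in Ctrl and at 5.19, 5.17 and 4.16 RPKM in icKO cardiomyocytes. The groups did not overlap, with a log2 fold change of 1.35 (SE 0.184) that became 0.81, and no longer a call, after median-ratio scaling. Mdm2 behaved alike in size, at 10.8, 9.57 and 10.8 RPKM in Ctrl and at 27.9, 28.0 and 24.0 RPKM in icKO cardiomyocytes, with a log2 fold change of 1.35 (SE 0.0971; 0.79 after median-ratio scaling and not called).

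The cell cycle genes went in both directions. Cdkn1a was at 10.1, 5.66 and 9.99 RPKM in Ctrl and at 170.8, 181.2 and 144.3 RPKM in icKO cardiomyocytes. The icKO mean was 19.3 times that of Ctrl and each icKO sample was far above each Ctrl sample, with a log2 fold change of 4.30 (SE 0.206; 3.73 after median-ratio scaling). Plk2 was at 4.14, 7.31 and 7.26 RPKM in Ctrl and at 12.7, 15 and 14.0 RPKM in icKO cardiomyocytes, a log2 fold change of 1.19 that became 0.63 and was no longer called. Btg2 was lower, at 52.9, 72.3 and 60.0 RPKM in Ctrl and at 25.2, 26.0 and 22.8 RPKM in icKO cardiomyocytes, and its log2 fold change was −1.31 (SE 0.118; −1.87 after median-ratio scaling). Ccng1, the most abundant of the 32 in Ctrl cardiomyocytes, went from 200 ± 23.3 to 107 ± 6.51 RPKM without overlap. With the RPKM as deposited its log2 fold change of −0.90 was not called, and with −1.47 after median-ratio scaling it was called lower. Gadd45a had a log2 fold change of 0.38, which turned to −0.18 with the scaling. Gtse1 and Ckap2, which belong to dividing cells, had Ctrl means of 0.0703 and 0.0323 RPKM, close to what 3 reads give.

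Of the 10 apoptosis genes 4 were called higher. Phlda3 had the largest log2 fold change of all members, at 0.412, 0.541 and 0.601 RPKM in Ctrl and at 13.5, 12.4 and 16.8 RPKM in icKO cardiomyocytes. The mean was 27.5 times that of Ctrl and the log2 fold change 4.54 (SE 0.169; 4.02 after median-ratio scaling). Phlda3 passed the filter through the icKO samples, as did Sesn2 and Gdf15. Zmat3 was at 1.46, 1.1 and 1.31 RPKM in Ctrl and at 6.06, 5.86 and 4.99 RPKM in icKO cardiomyocytes, with a log2 fold change of 2.04 (SE 0.147; 1.5 after median-ratio scaling). Bax was at 5.25, 4.80 and 3.54 RPKM in Ctrl and at 14.1, 16.0 and 13.9 RPKM in icKO cardiomyocytes. Its log2 fold change of 1.69 (SE 0.148) stayed called at 1.13 after median-ratio scaling, and an exon of Bax overlaps the annotated Gm45808 on the same strand, so reads could be shared. Aen was at 2.45, 2.29 and 2.6 RPKM in Ctrl and at 5.44, 5.21 and 4.91 RPKM in icKO cardiomyocytes, a log2 fold change of 1.06 that became 0.51 and was no longer called. Ei24 and Perp, at 0.40 and 0.16, turned to −0.16 and −0.41 with the scaling. Trp53inp1 had overlapping groups, with Ctrl samples spread from 1.22 to 5.0 RPKM. Pmaip1 was listed at 0 in all 3 Ctrl samples and at 0.067, 0.022 and 0 RPKM in icKO cardiomyocytes, and Apaf1 and Bbc3 were under 1 RPKM in every sample.

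Among the death receptors, Fas was the one tested at this stage and went from 3.89 ± 0.764 RPKM in Ctrl to 2.24 ± 0.447 RPKM in icKO cardiomyocytes, with all icKO samples below all Ctrl samples. The log2 fold change of −0.77 was called lower only after median-ratio scaling, at −1.31. Eda2r was at 0.191, 0.143 and 0.124 RPKM in Ctrl and at 1.22, 1.21 and 1.69 RPKM in icKO cardiomyocytes, under the filter but with groups far apart, and 3 reads on this gene correspond to 0.0360 to 0.0527 RPKM. Tnfrsf10b had a Ctrl mean of 0.225 RPKM and an icKO mean of 0.886 RPKM without overlap, and Pidd1 0.151 and 0.154 RPKM.

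All 5 DNA repair genes had every icKO sample above every Ctrl sample with the RPKM as deposited, and none was called. The 4 that were tested had log2 fold changes of 0.42 (Xpc) to 0.73 (Ercc5), near the 0.57 that was the median of all genes, and after median-ratio scaling −0.13 to 0.17. Polk, at 2.45 RPKM in the Ctrl of E10.5, went from 0.719 ± 0.0266 RPKM in Ctrl to 1.28 ± 0.130 RPKM in icKO cardiomyocytes.

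The sestrins and the secreted factor parted ways. Sesn1 was at 79.0, 76.5 and 57.8 RPKM in Ctrl and at 15.6, 18.9 and 22.8 RPKM in icKO cardiomyocytes, with no overlap and a log2 fold change of −1.89 (SE 0.158; −2.46 after median-ratio scaling), the lowest of the members. Sesn2 was at 0.826, 0.942 and 0.799 RPKM in Ctrl and at 2.87, 2.52 and 2.33 RPKM in icKO cardiomyocytes. Its log2 fold change of 1.48 (SE 0.169) became 0.96 and was no longer called. Gdf15 was at 0.164, 0.288 and 0.682 RPKM in Ctrl and at 2.70, 5.57 and 5.01 RPKM in icKO cardiomyocytes, with a log2 fold change of 3.33 (SE 0.412; 2.84 after median-ratio scaling). Ddit4 had Ctrl samples spread over 4.64 to 19.0 RPKM that overlapped the icKO samples. Its log2 fold change of −0.93 was called lower only after median-ratio scaling, at −1.49.

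**Figure D4:**
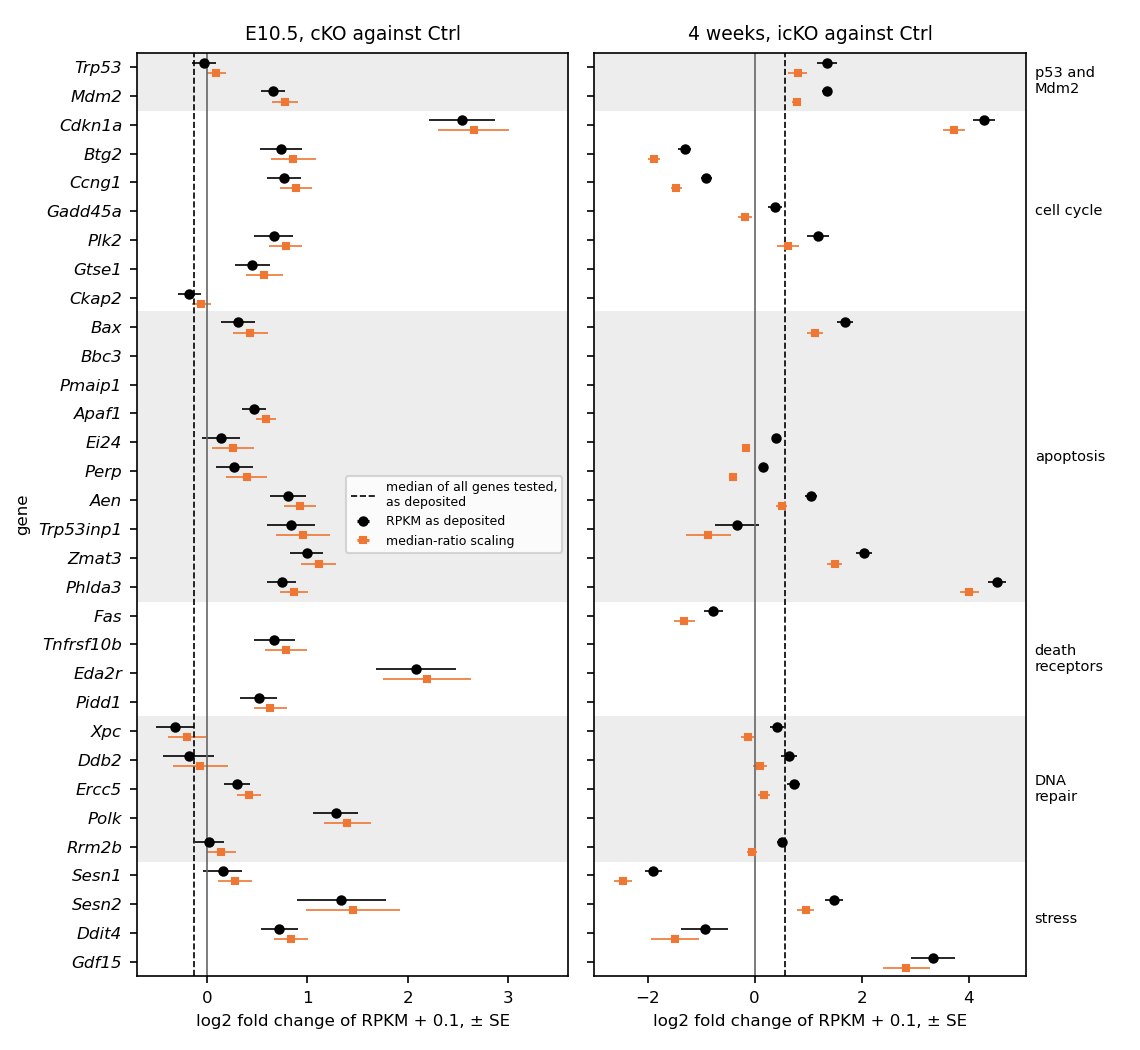
Log2 fold change ± SE of each gene tested at E10.5 (left, cKO against Ctrl) and at 4 weeks (right, icKO against Ctrl), with the RPKM as deposited (black) and after median-ratio scaling (orange); the dashed line is the median of all genes tested as deposited, −0.13 and 0.57. The horizontal axes differ in range, and genes without a point were not tested; Cdkn1a is far to the right at both stages.

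The stages were deposited as separate tables and cover different material, so the levels are set side by side with no test. In Ctrl the order of the genes was not the same. Trp53 had 23.9 ± 1.16 RPKM in E10.5 hearts and 1.86 ± 0.462 RPKM in 4-week cardiomyocytes, while Sesn1 had 3.98 ± 1.21 and 71.1 ± 11.6 RPKM and Btg2 5.63 ± 0.358 and 61.7 ± 9.82 RPKM. Ccng1 ranked first of the 32 in both. At E10.5 Trp53 and Plk2 followed, both at 23.9 RPKM, and then Ei24 at 20.1 ± 1.48 RPKM. The Plk2 samples overlapped those of Ccng1, Trp53 and Ei24, while those of Trp53 and Ei24 did not overlap each other. At 4 weeks Sesn1, Btg2 and Perp (50.3 ± 2.66 RPKM) followed Ccng1, and the first and second of these did not differ beyond their spread. Zmat3, Phlda3 and Cdkn1a had log2 fold changes of 0.99, 0.74 and 2.54 at E10.5 and 2.04, 4.54 and 4.30 at 4 weeks. The 2 members called lower at 4 weeks, Btg2 and Sesn1, had 0.74 and 0.16 at E10.5.

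The second list of 58 p53 targets, none of them a member, was tested in the same fits. It was drawn up with earlier results of these data known, as were the lists of regulators and cell cycle genes below. The calls and p-values of these lists are therefore descriptive. At E10.5, 2 of the 49 tested were called higher and 0 lower, against 0.239% and 0.542% of all genes. An unadjusted p under 0.05 was found for 8 with a higher and 3 with a lower level, which is 16.3% and 6.12% of the list beside 4.39% and 19.2% of all genes tested, and the median log2 fold change was −0.03, beside −0.13 over all genes. The receptor tyrosine kinase gene Epha2 was at 3.58, 2.59 and 3.67 RPKM in Ctrl and at 6.51, 8.01 and 6.27 RPKM in cKO hearts, and rose by 1.06 on the log2 scale (SE 0.171, limma adjusted p = 0.0204). The thiamine transporter gene Slc19a2 was at 2.06, 1.83 and 1.09 RPKM in Ctrl and at 3.82, 4.53 and 3.15 RPKM in cKO hearts and rose by 1.19 (SE 0.251, limma adjusted p = 0.0342). Both had groups that did not overlap, and leaving out 1 replicate ended both calls in 4 of the 6 fits, ended that of Slc19a2 without Ctrl replicate 1 and kept both without cKO replicate 3.

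At 4 weeks, 13 of the 45 tested rose and 6 fell, 28.9% and 13.3% of the list beside 28.0% and 8.45% of all genes. After median-ratio scaling the counts were 5 and 8, 11.1% and 17.8% beside 11.1% and 15.9%, so the shares called higher lay near the background. The median log2 fold change was 0.48 beside 0.57 over all genes. Of the 45 tested, 5, Epha2 among them, had a Ctrl mean at or under 1 RPKM and passed the filter through their icKO samples. Epha2 was at 0.192, 0.289 and 0.495 RPKM in Ctrl and at 10.9, 9.92 and 7.98 RPKM in icKO cardiomyocytes. Its rise of 4.56 on the log2 scale (SE 0.259) is a description of a gene that entered the fit in this way. The glutathione peroxidase gene Gpx1 rose from 22.6 ± 2.11 to 176 ± 14.6 RPKM (log2 fold change 2.95, limma adjusted p = 1.14e-07) and the replication clamp gene Pcna from 5.91 ± 0.989 to 34.6 ± 8.48 RPKM (2.52, limma adjusted p = 3.30e-06). Sertad1 and the phospholipid transfer gene Pltp rose by 2.15 and 1.79 and the adhesion gene Ninj1 by 1.47, and of these 6 all but Ninj1 were still called after median-ratio scaling. The ferrireductase gene Steap3 fell from 7.76 ± 1.0 to 1.04 ± 0.222 RPKM (−2.79, limma adjusted p = 1.20e-06) and the adenylate kinase gene Ak1 from 210 ± 11.9 to 55.3 ± 7.01 RPKM (−1.93, limma adjusted p = 5.78e-07). Tnfaip8, Ikbip, Cyfip2 and the cytokine gene Csf1 fell with log2 fold changes of −1.74 to −1.24. All 6 that fell were also called after median-ratio scaling.

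Of the 26 genes that regulate p53, none of the 23 tested at E10.5 was called (0 with a higher and 5 with a lower level had an unadjusted p under 0.05, the latter 21.7% of those tested beside 19.2% of all genes). Mdm4, the paralog and partner of Mdm2, averaged 11.3 ± 0.696 RPKM in Ctrl against 12.5 ± 0.431 RPKM in cKO hearts (log2 fold change 0.14, limma adjusted p = 0.449), and the phosphatase gene Ppm1d 5.01 ± 0.505 and 5.92 ± 0.337 RPKM (0.24, limma adjusted p = 0.290). Cdkn2a, whose product ARF holds Mdm2 in check, had a Ctrl mean of 0.0197 RPKM at E10.5, was listed at 0 in all cKO samples and was listed at 0 in all 6 samples at 4 weeks. In icKO cardiomyocytes 6 of the 21 tested rose, 28.6% beside 28.0% of all genes, and the median log2 fold change of 0.60 was near the 0.57 over all genes. The 6 were the kinase genes Hipk2 and Prkdc, the ubiquitin ligase gene Rchy1, Daxx, the deacetylase gene Sirt1 and the deubiquitinase gene Usp7, which rose by 1.07 to 1.40 on the log2 scale with limma adjusted p from 4.88e-06 to 8.02e-05. None of the 6 was called after median-ratio scaling (11.1% of all genes), where they had 0.50 to 0.84 and 1 other regulator, Kat5, was lower. At 4 weeks the change of Mdm4 was 0.11 (limma adjusted p = 0.439).

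Cell cycle genes that the DREAM complex represses when p21 accumulates form the last list. All 20 were tested at E10.5 and 0 were called (10, all with a lower level, had an unadjusted p under 0.05, 50% of the list beside 19.2% of all genes), with a log2 fold change below 0 for 19 and a median of −0.30 beside −0.13 over all genes. In 10 of the 20 the cKO samples all lay lower than the lowest Ctrl sample, as in 13.8% of all listed genes. The lower levels of Ccnb1 (−0.54, limma adjusted p = 0.0359), Ccnb2 (−0.48, limma adjusted p = 0.0435) and Bub1b (−0.53, limma adjusted p = 0.0275), named after their values were seen, had adjusted p under 0.05 with changes too small for a call. At 4 weeks none of the 20 reached the filter, and their RPKM summed to 1.01 to 1.11 in Ctrl and 3.08 to 6.79 in icKO cardiomyocytes.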

How the data were processed

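Of the 12 samples, 3 per group, the authors mapped reads to mm10 (GRCm38) and deposited RPKM per gene. The submitters' processing notes name cutadapt 2.6, STAR 2.5.3a, HOMER 4.11.1 and DESeq2 1.12.4, and the annotation and the strand used in counting are not given in the sources used here. The tables also hold the authors' mean RPKM, log2 fold change and FDR per gene, which were not used. Whether a replicate is 1 animal or a pool is not stated, so p-values measure the spread between samples. Each stage was fitted alone with limma 3.58.1 (lmFit, eBayes with trend; R 4.3.3) on log2(RPKM + 0.1) after dropping genes with mean RPKM of 1 or less. Calls needed a Benjamini-Hochberg adjusted p, over every gene of the fit, under 0.05 together with a change of over 1 in size on the log2 scale. With 3 against 3 samples, 0.1 is the smallest two-sided p an exact permutation test allows. The fit was tested on simulated data with 200 genes changed. Depth was estimated from values of up to 12 reads, and 62.8% to 70.7% of them lay within 0.1 of a whole read; floors of 3 reads cover counting error only.

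The members and lists were chosen with earlier results of these data known. Sample values are given for Trp53, Mdm2, Cdkn1a and members with a log2 fold change beyond 1 at either stage; other genes called are named up to 6 per list, stage and direction, with Mdm4, Ppm1d, Cdkn2a and Med30. Values shown beyond this rule (Pmaip1, Fas, Eda2r at 4 weeks, Zmat3 at E10.5) were chosen after their values were seen. Xist, Trp53cor1 and Pvt1 have no row and were not analysed here. Reads of Gadd45a, Ei24, Ddb2 and Rrm2b may be shared with genes on the other strand and those of Bax with Gm45808. Alternatives were pseudocounts of 1 and 0.01, no filter, quantile normalization, median-ratio scaling, rescaling without the 20 most abundant genes, the replicate number as a block, and leaving out each replicate. Tables were read with Python 3.11.15, pandas 2.3.3 and numpy 2.4.6 and plotted with matplotlib 3.10.9. Gene positions and promoters are those of RefSeq on GRCm38.p6, and exon overlaps were read from GENCODE.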

Additional observations from a re-analysis of the deposited data

Results flagged for a closer look

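Among the genes tested at both stages, in 3 members and 1 regulator every sample of the knockout lay on one side of Ctrl at E10.5 and on the opposite side at 4 weeks. Of all listed genes, 4.4% lay wholly above and 13.8% wholly below Ctrl at E10.5, and 36.2% and 11.9% at 4 weeks. The share of all genes that changed side was not counted, so the 4 genes are listed as a description. The difference between the stages was not tested, since the tables are separate and the material differs. Btg2 had a log2 fold change of 0.74 at E10.5 and −1.31 at 4 weeks, and Ccng1 0.77 and −0.90. Xpc had −0.32 at E10.5 and 0.42 at 4 weeks, where median-ratio scaling gave −0.13. With that scaling Xpc had −0.20 at E10.5, where 0 members then lay wholly below Ctrl, so its change of side was not kept. Usp7 had −0.28 and 1.07, with 0.50 at 4 weeks after the same scaling. The directions of Btg2 and Ccng1 were the same under that scaling at both stages. Ckap2 also lay below Ctrl at E10.5, at 12.2 and 10.7 RPKM on average, and above it at 4 weeks, but it was not tested at 4 weeks, where it was at 0.0323 and 0.199 RPKM and listed at 0 in 1 Ctrl sample.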

How the results depend on the processing

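At E10.5, 1 member was called higher with no filter, and 1 to 6 when 1 replicate was left out: Cdkn1a was called in each of these fits, Eda2r and Polk were lost without Ctrl replicate 1 or 3 or cKO replicate 1 or 2, Polk also without Ctrl replicate 2, and 6 were called without cKO replicate 3. Of the other p53 targets at E10.5, 0 were called higher with a pseudocount of 1, 1 with no filter and 0 to 3 when a replicate was left out. At 4 weeks, the members called higher were 5 with median-ratio scaling and 6 with quantile normalization, those called lower were 5 with either and 5 without the 20 most abundant genes, and leaving out a replicate gave 9 to 10 and 2 to 3 (Plk2 was lost without Ctrl replicate 1, and Ddit4 was called lower without Ctrl replicate 3). The other targets called higher were 5, 6 and 7 under these 3 scalings, and the regulators called 1, 1 and 3. With no filter at 4 weeks, 13 members (Ckap2, Eda2r and Tnfrsf10b in addition) were called higher and 8 DREAM genes were called. The 20 DREAM genes summed to 1.01 to 1.11 RPKM in Ctrl there, and none had every icKO sample below every Ctrl sample. In 10 of them every icKO sample lay above every Ctrl sample, beside 36.2% of all listed genes. Their median log2 fold change with no filter was 0.79, beside 0.36 over all genes. Median-ratio scaling of the samples, chosen after seeing the data, left 19 members above and 0 below at E10.5. Over all genes tested, calls at E10.5 were 26 higher and 59 lower with the RPKM as deposited and 35 and 41 after median-ratio scaling, and at 4 weeks 2668 and 804 against 1053 and 1511. With no filter they were 17 and 35 of 16562 genes at E10.5 and 3472 and 1183 of 16289 at 4 weeks. At 4 weeks quantile normalization gave 1192 and 1349 of 9517 genes, and rescaling without the 20 most abundant genes 1837 and 1074 of 9523. At E10.5 the genes called higher were 9 without cKO replicate 2 and 36 without cKO replicate 3. The cause of these shifts was not tested. No called value changed its direction under the alternatives run. Depth limits the members listed near 3 reads.

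The replicate numbers do not pair the samples by any label, and same-numbered samples correlated at 0.01, 0.10 and −0.07 at E10.5 and at 0.15, 0.04 and 0.05 at 4 weeks. With the replicate block, 3 and 0 members were called higher and lower at E10.5 and 10 and 2 at 4 weeks, 3 other targets were called higher at E10.5, and over all genes 32 were higher and 61 lower at E10.5 and 2672 and 805 at 4 weeks. At 4 weeks, 2 of the 3 Ctrl samples correlated best with the icKO sample of their own number.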
